A study of Mus musculus with 4 samples.

Results

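The genes described here are 10 genes of the epidermal water barrier, 4 lipoxygenases and 6 genes of ceramide making and handling, out of 32285 genes listed in each matrix. They were taken as a named list: Alox12, Alox12b, Aloxe3 and Alox12e, then Cers3, Elovl4, Abca12, Pnpla1, Acer1 and Ugcg. All 10 are listed in all 4 libraries, and the rule that names them uses no measured level, though the list was drawn up with earlier results of these data known.

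Adult mouse epidermis was separated with 0.25% trypsin, at 4 or 37 °C, and its cells were profiled by droplet single-cell RNA sequencing (10x Genomics) in 4 libraries, 1 per group. Control mice were DNp63fl/fl, with loxP sites in the ΔNp63 isoform of the transcription factor gene Trp63. Experimental mice were DNp63fl/fl;K14-CreT2, in which the keratin 14 promoter drives a tamoxifen-dependent Cre recombinase in basal keratinocytes. All mice, controls included, received tamoxifen at 200 mg/kg a day for 5 days by gavage. Ages ran from 2 to 17 months, males and females were used, and cells were taken 1 day or 1 week after ablation. How many animals a library pools, and which digestion, age or sex it holds, the labels do not say. The kit read the 3′ end of RNAs at 1 day and the 5′ end at 1 week, so comparisons were made only within a time point.

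The outermost epidermis keeps water in with sheets of lipid rich in ceramides, which are laid down by granular keratinocytes as they die. Elovl4 lengthens the fatty acids, Cers3 joins them to a sphingoid base, Pnpla1 adds linoleate to give acylceramide, Ugcg adds glucose, and Abca12 loads the product into lamellar granules. Alox12b and then Aloxe3 oxidise the linoleate, a step needed to bond ceramides to the cornified envelope, and Acer1 splits ceramides. Alox12 encodes the platelet-type lipoxygenase and Alox12e a lipoxygenase named for the mouse epidermis.

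All 4 lipoxygenases lie on chromosome 11 (GENCODE release 21 for mouse, build GRCm38), in 2 pairs. Aloxe3 (chr11:69125896-69149115) and Alox12b (chr11:69156989-69169792) are on the plus strand, 7.87 kb apart. Alox12 (chr11:70241457-70255353) and Alox12e (chr11:70315610-70322628) are on the minus strand, 60.3 kb apart and 1072 kb from Alox12b. The ceramide genes are Abca12 (chr1:71242276-71414910), Ugcg (chr4:59189257-59222833), Cers3 (chr7:66743504-66823691), Elovl4 (chr9:83778692-83806277), Pnpla1 (chr17:28858411-28890309) and Acer1 (chr17:56953490-56982126). Pnpla1 overlaps the antisense gene Pnpla1os and Acer1 a non-coding gene on the other strand. Whether the counting used strand is not given in the sources used here, so part of the UMIs of these 2 genes could belong to those partners.

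The promoters of Alox12 and Alox12b are shown because these 2 lipoxygenases moved furthest in opposite directions, and that of Acer1 because it alone of the 9 members with a RefSeq promoter (build GRCm38.p6) held a p53-family motif match. Sequences run 5′ to 3′ on the gene's strand, up to the base before the RefSeq start or, for Alox12b, before the GENCODE gene, and capitals mark the motif match.
Alox12 (chr11:70255371-70255620, minus strand): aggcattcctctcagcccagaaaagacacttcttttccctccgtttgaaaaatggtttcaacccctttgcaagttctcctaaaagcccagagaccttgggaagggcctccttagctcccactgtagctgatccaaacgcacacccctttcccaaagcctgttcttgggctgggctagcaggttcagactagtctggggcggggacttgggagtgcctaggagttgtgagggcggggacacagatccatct
Alox12b (chr11:69156822-69156988, plus strand): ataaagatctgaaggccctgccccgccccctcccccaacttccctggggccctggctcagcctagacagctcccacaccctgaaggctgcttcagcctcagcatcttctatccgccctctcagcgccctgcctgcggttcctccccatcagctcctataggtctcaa
Acer1 (chr17:56982127-56982376, minus strand): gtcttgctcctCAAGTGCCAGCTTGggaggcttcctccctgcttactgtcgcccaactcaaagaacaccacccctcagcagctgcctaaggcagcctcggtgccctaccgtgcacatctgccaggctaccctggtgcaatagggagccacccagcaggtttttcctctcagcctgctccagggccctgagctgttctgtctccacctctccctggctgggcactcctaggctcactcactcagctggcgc
The p53-family motif was searched on both strands of the 250 bases before each RefSeq start, and 5.84% of 32851 promoters held it. The match in Acer1 lay 239 to 226 bases before the start. The letters TGANTCA, which the AP-1 family of factors binds, were searched on both strands with overlaps allowed and stood in 6.75% of promoters. AACCNGTT, bound by the Grainyhead factors, was found by the same search in 1.79% of them. The TATA box motif was in 12.4% of promoters. Of these 3 motifs, 0 were found in the 9 members. These are matches of letters, not binding sites, and the libraries hold no binding data.

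The libraries held 18413 to 33552 barcodes and 68191870 to 179736563 gene UMIs (unique molecular identifiers, each marking 1 captured RNA). Barcodes with at least 2000 UMIs that passed the other filters came to 19244 control and 19418 experimental cells at 1 day, and 8468 and 5193 cells at 1 week. Of these, 18749, 18655, 7731 and 3538 were keratinocytes. The 1 day libraries shared 299 barcode sequences and the 1 week libraries 661 (2.64% and 3.59% of their barcodes), and 9 to 18 were shared across time points. Trp63, all isoforms counted together, was at 400.3 CPM (UMIs of the gene in 1000000 UMIs) in control and 110.7 in experimental keratinocytes at 1 day, and at 431.1 and 137 at 1 week. Each group is 1 library, so no comparison below has a replicate check or a test, and every interval is a 95% interval for counting error only.

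Cells were clustered without the members and the pathway genes named below, and clusters were named from fixed markers. The makeup of the libraries differed. Spinous-like cells were 28.4% of control and 5.57% of experimental keratinocytes at 1 day, and 13.4% and 0.17% at 1 week. Granular-like cells made up 1.02% of control and 9.1% of experimental keratinocytes at 1 day, and at 1 week 0.54% and 4.66%. Clusters high in Krt8, a keratin of simple epithelia, held 5 control and 4822 experimental cells at 1 day, and 6 and 449 at 1 week. The summed level of 10 granular markers, from which that class was named, was 36318 CPM in granular-like, 3894 in upper follicle-like, 1998 in spinous-like and 152 in basal-like cells of the 1 day control library. A level taken over all keratinocytes therefore mixes how many cells of a layer were captured with how much RNA each holds, and levels within classes are given beside it.

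Among named keratinocyte classes with at least 40 cells in control skin, 6 of the 10 members were highest in granular-like cells at both time points, namely Alox12b, Aloxe3, Cers3, Abca12, Pnpla1 and Ugcg. For each of these the next class was spinous-like, and the intervals of granular-like and spinous-like cells did not overlap. Alox12b stood at 281.9 CPM in granular-like, 47.1 in spinous-like, 28.7 in upper follicle-like and 3.2 in basal-like cells at 1 day. At 1 week it stood at 400.8, 42.8, 7.49 and 0.56 CPM in the same order. Its level was higher in each layer further out. Aloxe3, the partner enzyme, was at 110.8 CPM in granular-like and 43.9 in spinous-like cells at 1 day, and at 16.9 in basal-like cells, near the 16 CPM of immune cells in that library. Pnpla1 was at 48.9 CPM in granular-like cells, and in spinous-like (10.8) and upper follicle-like cells (10.2) its intervals overlapped.

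**Figure D1:**
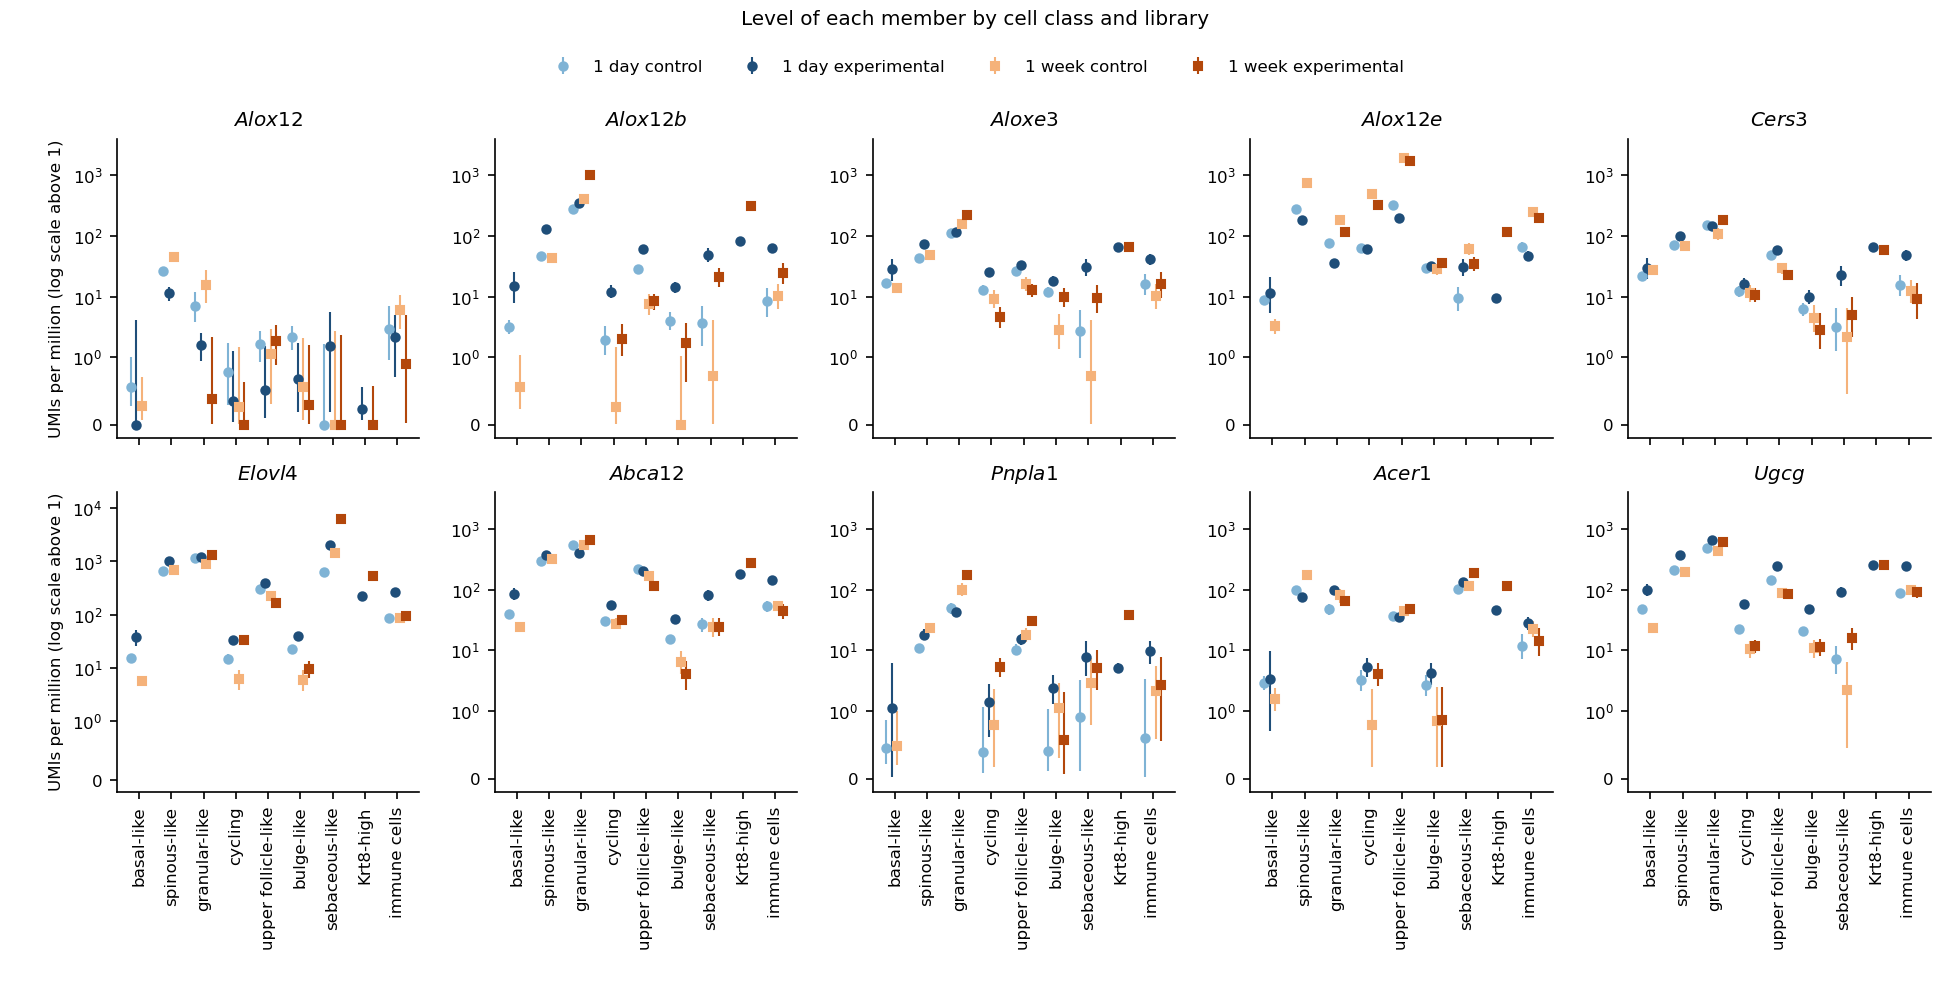
Level of each member in CPM (log scale above 1, linear below) by cell class, with 1 point per library and 95% Poisson intervals for counting error. Among control classes Alox12 is highest in spinous-like cells, Alox12e in upper follicle-like cells, and Alox12b in granular-like cells, where the 1 week experimental library reaches 1010 CPM. Classes with under 40 cells in a library are left out.

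The other 4 members had other maps. Alox12 was a spinous gene: 26.1 CPM in spinous-like and 7.06 in granular-like cells at 1 day, and 45.5 and 15.5 at 1 week, with at most 2.18 CPM in any other control class of keratinocytes named. Alox12e was highest in the upper follicle, at 320.2 CPM at 1 day and 1926 at 1 week, then in spinous-like cells at 272.4 and 746.2 CPM. The 1 day order has a limit, as the control hashtag sets described below overlapped. They ran from 285.5 to 402.3 CPM in upper follicle-like and 269.3 to 313.6 CPM in spinous-like cells. Basal-like cells held 8.78 and 3.27 CPM of Alox12e. The follicle level of Alox12e differs between time points along with the kit, so those values are not compared.

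Elovl4 and Acer1 were also sebaceous. At 1 day Elovl4 was at 1160 CPM in control granular-like cells, and spinous-like (666.2) and sebaceous-like cells (643.4) overlapped in their intervals. Acer1 was at 101 CPM in sebaceous-like and 100 CPM in spinous-like cells, which also overlapped, and at 47.3 in granular-like cells. At 1 week control sebaceous-like cells held 1443 CPM of Elovl4 and 116 CPM of Acer1, but 7 of the 156 cells, in 1 cluster, gave 1938 of the 1977 Elovl4 UMIs. The other 149 cells were at 32.1 CPM of Elovl4 and 75.6 CPM of Acer1. In control basal-like, cycling and bulge-like cells each of the 10 members stood lower than in spinous-like cells at both time points. Alox12e in cycling cells was at 64 CPM at 1 day and 489.2 at 1 week.

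Over all keratinocytes, Alox12 was far lower and Alox12b far higher in the experimental library at both time points. Counting a gene as lower or higher when it differed at least 2-fold with at least 20 UMIs over both libraries, 2 of 10 members were lower and 4 of 10 higher at 1 day. Of all 14866 genes with that many UMIs, 3.57% were lower and 6.92% higher. At 1 week 1 member was lower and 3 were higher, against 6.43% and 9.74% of 14731 genes. The median log2 ratio of the members was 0.76 at 1 day and 0.37 at 1 week, and that of all genes was -0.02 and 0.07.

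Alox12 had 1181 UMIs (10.8 CPM) in 1 day control and 104 UMIs (1.18 CPM) in 1 day experimental keratinocytes. The log2 ratio was -3.20 (-3.50 to -2.91), a 9.17-fold lower level. At 1 week it went from 993 UMIs (17.2 CPM) to 30 UMIs (0.80 CPM), a log2 ratio of -4.44 (-5.01 to -3.91), or 21.6-fold lower. In both experimental libraries the level of this gene was near 1 CPM. Alox12e was lower at 1 day, at 160.8 against 56.7 CPM (log2 ratio -1.505, -1.55 to -1.46), but stood at 492.5 against 430 CPM at 1 week (-0.20, -0.22 to -0.17).

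Alox12b went the other way. It was at 27.3 CPM in control and 131.4 in experimental keratinocytes at 1 day, a log2 ratio of 2.27 (2.21 to 2.32). At 1 week the levels were 22.1 and 145.7 CPM, a log2 ratio of 2.72 (2.63 to 2.81), or 6.58-fold higher. Aloxe3, its neighbour and partner, was higher by 1.33 on the log2 scale at 1 day (28.2 and 70.8 CPM) and by 0.41 at 1 week (25.4 and 33.8 CPM).

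**Figure D2:**
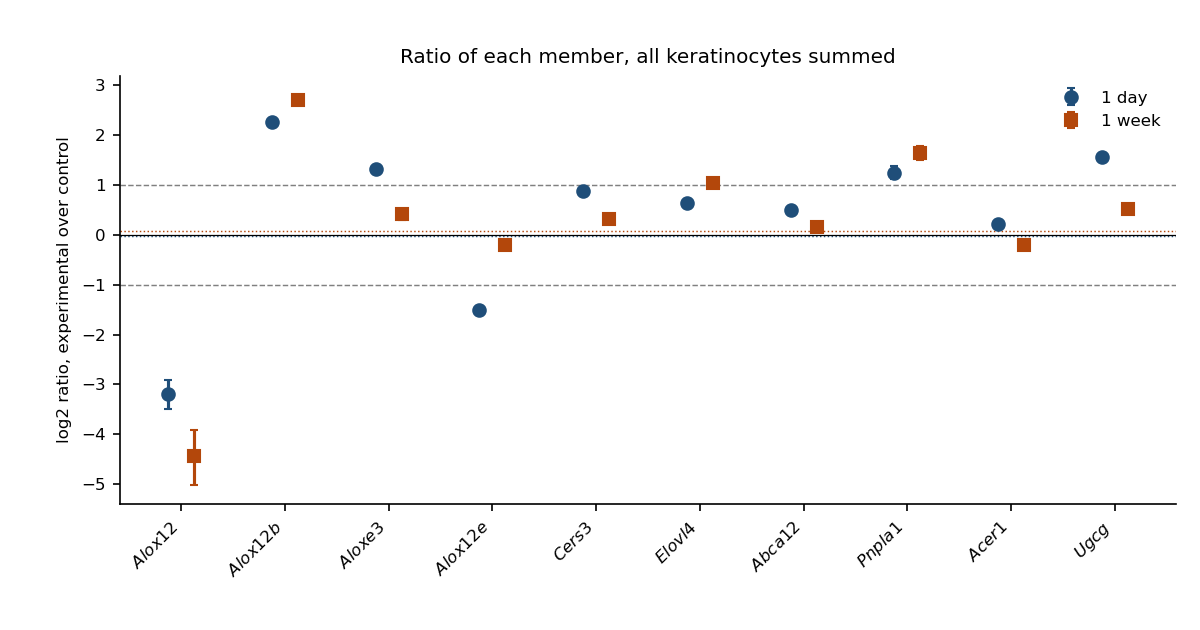
Log2 ratio of experimental over control for each member over all keratinocytes, with 95% counting intervals, which are often smaller than the symbols. Dashed lines mark 2-fold and dotted lines the median of all genes. Alox12 lies at -3.20 and -4.44, and Alox12b at 2.27 and 2.72.

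Among the ceramide genes, Ugcg and Pnpla1 were more than 2-fold higher at 1 day. Ugcg was at 116 CPM in control and 345.2 in experimental keratinocytes (log2 ratio 1.57, 1.54 to 1.60), and at 94.3 and 134.7 CPM at 1 week (0.51, 0.46 to 0.57). Pnpla1 was at 6.14 and 14.6 CPM at 1 day (1.25, 1.12 to 1.39) and at 11.3 and 35.2 CPM at 1 week (1.64, 1.502 to 1.78). Both stood higher in each experimental library.

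The other ceramide genes differed less. Cers3 was at 40.6 and 74.8 CPM at 1 day, a log2 ratio of 0.88, and at 35.9 and 44.9 CPM at 1 week, a ratio of 0.32. Abca12 had log2 ratios of 0.50 and 0.16, and Acer1 of 0.21 and -0.20, so neither differed by more than 1.42-fold. Elovl4 was at 326.4 and 507.5 CPM at 1 day (0.64) and at 302.6 and 619.5 CPM at 1 week (1.03, 1.01 to 1.06). The 1 week difference rested largely on sebaceous-like cells, which held 11.3% of the control and 42.2% of the experimental Elovl4 UMIs. Without them its log2 ratio was 0.45, under 2-fold.

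The 1 day libraries also carry hashtag antibody counts, with 3 hashtags in use, and 64% of control and 38.9% of experimental cells at or above 2000 UMIs were led clearly by 1 of them. The labels do not say what a hashtag marks, so these sets show spread within a library and are not replicates. Alox12 in keratinocytes was at 12.9, 11.9 and 10.9 CPM in the 3 control sets and at 1.19, 0.99 and 2.22 CPM in the 3 experimental sets. Alox12b was at 21.5, 31.8 and 40.1 CPM against 157.1, 159.5 and 109.3 CPM. Ugcg was at 107.8, 125.6 and 143.8 CPM against 369.5, 405.6 and 326.4 CPM. In 9 of 10 members the control sets did not overlap the experimental sets, as was so for 34.2% of 13761 genes. Acer1 overlapped, at 43.4 to 60.1 CPM in control and 42.9 to 67.9 CPM in experimental sets.

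**Figure D3:**
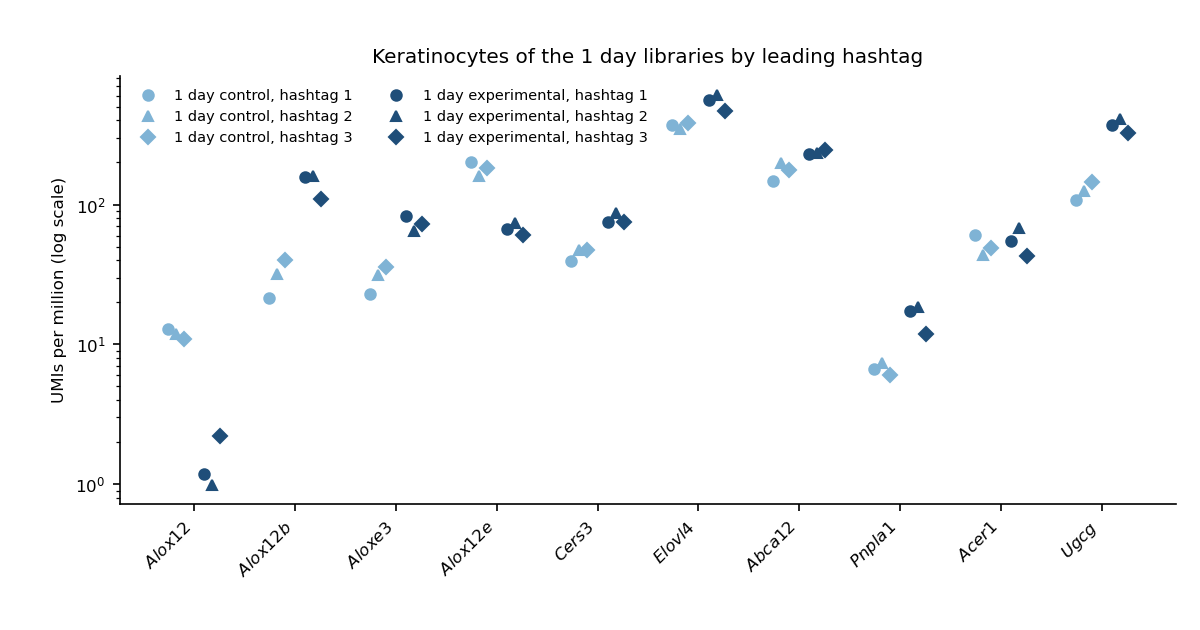
CPM (log scale) of each member in keratinocytes of the 1 day libraries, 1 point per hashtag set, 3 sets per library. Control and experimental sets are apart for 9 members and overlap for Acer1.

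Within granular-like cells at 1 day, 7 of 10 members differed less than 2-fold between the libraries. Alox12b was at 281.9 CPM (519 UMIs) in control and 342.3 CPM (3848 UMIs) in experimental granular-like cells, a log2 ratio of 0.28 (0.15 to 0.41). Aloxe3 (0.05, -0.17 to 0.27), Cers3 (-0.04, -0.23 to 0.15), Elovl4 (0.06, -0.0012 to 0.13) and Pnpla1 (-0.17, -0.499 to 0.17) had intervals that included 0. Abca12 was lower by a log2 ratio of -0.44 (-0.54 to -0.34) and Ugcg higher by 0.45 (0.35 to 0.55). Alox12 (7.06 and 1.6 CPM, from 13 and 18 UMIs) and Alox12e (75 and 35.9 CPM) were more than 2-fold lower, and Acer1 (47.3 and 99.5 CPM) more than 2-fold higher. These 3 of 10 compare with 19.3% of 9804 genes past 2-fold in either direction in the same cells. The experimental Alox12 and Alox12e levels lie below those of experimental immune cells, given below. The part of background in these differences was not tested. Of the control granular-like cells 189 of 191 lay in 1 cluster, led by late envelope genes (Lce1m, Lor), which held 422 experimental cells. The other 1275 experimental cells lay in a cluster led by Slurp1, Flg and Hrnr. Alox12b was at 283.7 CPM in control and 343.9 in experimental cells of the shared cluster, and at 341.9 in the other. Alox12e was at 75.5 and 19.2 CPM in the shared cluster, further apart than in the whole class, and at 40.5 CPM in the other. Elovl4 was lower in experimental cells of the shared cluster, at 1151 CPM (1102 to 1201) and 1059 CPM (1018 to 1101). Aloxe3 (110.7 and 139.5 CPM), Cers3 (149.9 and 182.8) and Pnpla1 (49 and 57) stood higher in experimental cells there, with level intervals that overlap. Ratio intervals within clusters are not given, so overlap here and in the next sentences does not show that levels are alike. Acer1 was not higher in experimental cells of the shared cluster, at 47.9 CPM (38.4 to 59.1) in control and 31.6 CPM (24.9 to 39.6) in experimental cells, and stood at 118 CPM in the cluster that is nearly all experimental. Its higher class level thus rests on that second cluster. Abca12 was at 553.7 CPM (520 to 589) in control and 502.9 CPM (474.9 to 532.1) in experimental cells of the shared cluster, with intervals that overlap. In the other cluster it stood at 378.3 CPM. The hashtag sets of granular-like cells, described above, also overlapped for Abca12, at 484.7 to 621.7 CPM in control and 379.2 to 488.4 CPM in experimental sets.

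In spinous-like cells at 1 day, 2 of 10 members passed 2-fold, against 10.4% of 11464 genes. Alox12 was at 26.1 CPM (24.6 to 27.7) in control and 11.3 CPM (8.6 to 14.5) in experimental cells, and Alox12b at 47.1 and 130.8 CPM. The class holds an early cluster led by Mt4 and Krt1 and a late cluster led by Ivl, the envelope protein involucrin, and the late cluster was 1265 of 5318 control but 545 of 1039 experimental cells. Within the early cluster Alox12 was at 16.1 CPM (425 UMIs) and 1.62 CPM (3 UMIs), and within the late cluster at 42.5 and 16.4 CPM. Alox12b was at 13.6 and 33.4 CPM in the early and 102.8 and 182.9 CPM in the late cluster. Alox12e was at 134.4 and 46.9 CPM in the early and 500.9 and 252.7 CPM in the late cluster. In each cluster Alox12 and Alox12e were lower in the experimental library. Alox12b was higher in each. Its experimental level in the early cluster (25.6 to 42.8 CPM) lies below the 62.6 CPM of pooled experimental immune cells, given below. It lies above the levels of experimental basal-like (14.7 CPM), cycling (12.1) and bulge-like cells (14.2). These comparisons do not settle whether it is above background. The summed granular markers were also higher in experimental spinous-like cells, at 1998 and 7144 CPM, and their part in the Alox12b difference was not tested.

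At 1 week the experimental library held 6 spinous-like and 14 basal-like cells, too few for a ratio. Granular-like cells numbered 42 in control and 165 in experimental skin. Alox12b was at 400.8 CPM (355.6 to 450.1) in control and 1010 CPM (972 to 1049) in experimental granular-like cells, a log2 ratio of 1.33 (1.16 to 1.52), and it was the 1 member of 9 with enough UMIs past 2-fold, against 18.4% of 6678 genes. The summed granular markers stood at 64549 and 131446 CPM in the same cells. Pnpla1 (99.8 and 172.2 CPM) and Cers3 (108.3 and 185.2 CPM) were higher by 0.79 and 0.77 on the log2 scale, and Aloxe3 by 0.49. Alox12 had 11 UMIs in control granular-like cells (15.5 CPM, 7.72 to 27.7) and 1 UMI in experimental ones (0.38 CPM, 0.01 to 2.12).

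**Figure D4:**
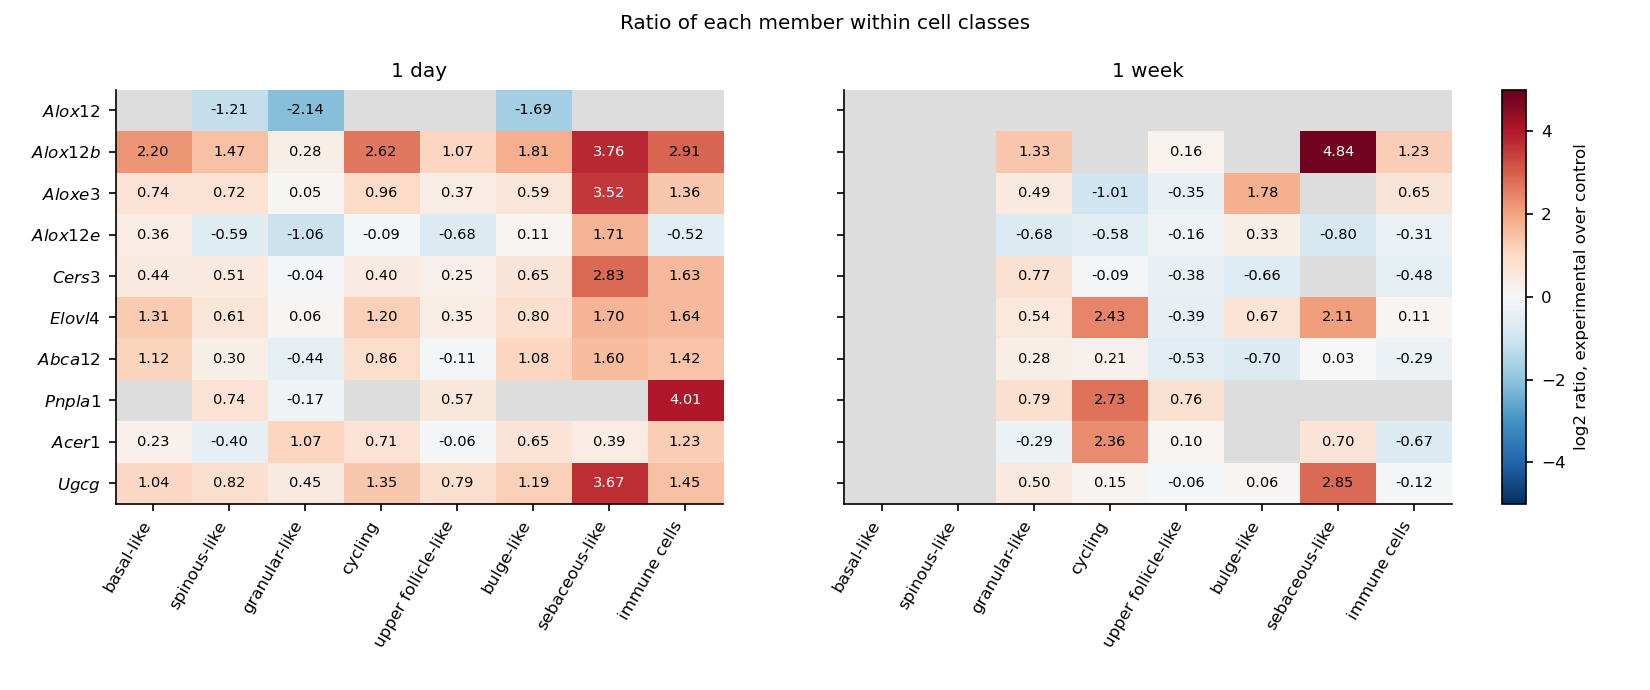
Log2 ratio of experimental over control for each member within each cell class, at 1 day and at 1 week. Grey fields have under 20 UMIs over both libraries or under 40 cells in either library. Granular-like cells at 1 day are near 0 for most members (Alox12b 0.28), while immune cells at 1 day are not (Alox12b 2.91).

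Immune cells, which are not known to make Alox12b, serve as the comparison for RNA that did not come from the cell itself, which was not measured directly. At 1 day Alox12b was at 8.32 CPM in control and 62.6 CPM in experimental immune cells, Ugcg at 88.5 and 241.7 CPM and Elovl4 at 87.3 and 271.7 CPM. At 1 day 8 of 9 members with enough UMIs were at least 2-fold higher there, against 9.08% of 9220 genes past 2-fold in either direction, and at 1 week 1 of 8 was, against 11.4% of 9486 genes. Langerhans-like or dendritic-like cells held less Alox12b (5.92 and 21.1 CPM) than T cell-like cells (10.7 and 85 CPM). The pooled immune value is therefore not a single background. Both types are used in the next sentences for Alox12b, and later comparisons give the pooled value, which can hide levels above that of Langerhans-like cells. Ugcg in 1 day control cells was at 20.9 CPM in bulge-like, 22.6 in cycling and 7.24 in sebaceous-like cells, below the 88.5 CPM of immune cells. What immune cells themselves make of Ugcg and the other ceramide genes was not measured. For these genes a level under or near the immune one does not show that it is background. In experimental cells at 1 day, Alox12b was at 14.7 CPM in basal-like, 12.1 in cycling, 14.2 in bulge-like, 60.5 in upper follicle-like and 49 in sebaceous-like cells. The basal-like, cycling and bulge-like levels lie below both immune types, and whether they are background was not tested. The upper follicle-like, sebaceous-like and Krt8-high levels (81.8 CPM for the last) lie between the 2 immune types. Granular-like (342.3) and spinous-like cells (130.8) lie above both. The other named cells that are not keratinocytes, 182 in the 1 day experimental library and mostly fibroblast-like, held 98.5 CPM of Alox12b (78.6 to 122) and 339 CPM of Ugcg, above the Krt8-high levels. In control and experimental immune cells Alox12 was at 2.97 and 2.17 CPM at 1 day, with 5.97 and 0.90 CPM at 1 week. What immune cells themselves make of Alox12 was not measured. Whether levels of a few CPM in control classes other than spinous-like and granular-like are background was not tested.

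With that limit, the counts in the remaining classes were as follows. At 1 day 4 of 8 members passed 2-fold in basal-like cells (14.8% of genes), 3 of 8 in cycling cells (6.95%), 1 of 9 in upper follicle-like cells (5.00%) and 4 of 9 in bulge-like cells (4.53%). In sebaceous-like cells 7 of 8 did at 1 day (10.8%) and 3 of 6 at 1 week (14.4%). At 1 week 4 of 8 did in cycling cells (12.8%), 0 of 9 in upper follicle-like cells (11.3%) and 1 of 6 in bulge-like cells (6.74%). Of the 7 in sebaceous-like cells at 1 day, only Elovl4 stood above the pooled immune level in the experimental library. In clusters of low UMI number at 1 week, which were set aside, 8 of 9 members were at least 2-fold higher, against 17.7% of 10011 genes higher. Keratinocytes without a class were 3248 control and 6636 experimental cells at 1 day. There 2 of 10 members were lower and 8 higher, against 1367 and 1247 of 12597 genes. At 1 week (2993 and 1195 cells) 2 were lower and 2 higher, against 1269 and 839 of 12958 genes. The libraries fill different clusters there, and the part of that makeup was not tested.

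As a share of cells with at least 1 UMI after thinning every cell to 2000 UMIs, Alox12 was found in 4.27% (3.74 to 4.85) of control and 1.83% (1.1 to 2.84) of experimental spinous-like cells at 1 day. Immune cells gave 0.5% and 0.52%. Without thinning the spinous-like shares were 16.1% and 5.49%, at median depths of 6404 and 4168 UMIs, and the immune shares 1% and 0.86% at 2770 and 3056 UMIs. Alox12b was found in 41.9% (34.8 to 49.2) of control and 45.9% (43.5 to 48.3) of experimental granular-like cells at 1 day. At 1 week the shares were 40.5% (25.6 to 56.7) and 75.8% (68.5 to 82.1). Immune cells gave 1.5% and 9.12% at 1 day and 1.15% and 0.68% at 1 week. Unthinned shares of granular-like cells with Alox12b were 85.9%, 76.3%, 81% and 97%, at median depths of 9329, 5535, 14896 and 15168 UMIs, and the immune shares were 2.5%, 15.3%, 1.15% and 2.72%.

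The cells that held each lipoxygenase also differed between libraries. Spinous-like cells held 93.2% of the Alox12 UMIs of control keratinocytes at 1 day and 64.3% at 1 week, with 33.5% at 1 week in keratinocytes without a class. In the 1 day experimental library spinous-like cells held 57.7% of the 104 UMIs that were left. At 1 week 60% of the 30 UMIs were in keratinocytes without a class and 33.3% in upper follicle-like cells. Alox12b UMIs were 66.8% spinous-like and 17.4% granular-like in 1 day control keratinocytes. In the 1 day experimental library they were 6.01% spinous-like, 33.2% granular-like, 14.8% Krt8-high and 41% without a class. At 1 week granular-like cells held 22.3% of them in control and 48.3% in experimental skin, where Krt8-high cells held another 35.5%.

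**Figure D5:**
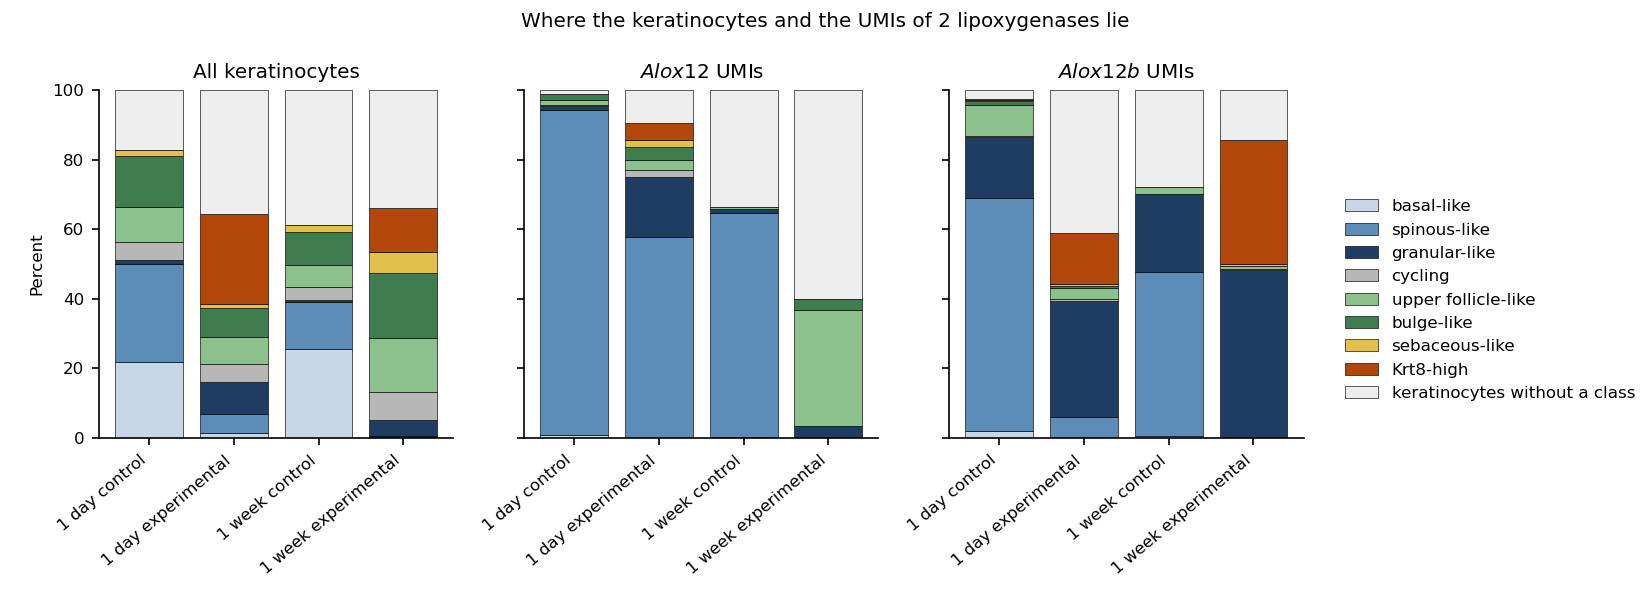
Share in percent of keratinocytes, of Alox12 UMIs and of Alox12b UMIs that lies in each cell class, by library. Spinous-like cells are 28.4% of 1 day control keratinocytes and hold 93.2% of their Alox12 UMIs, and Alox12b UMIs lie mostly outside them in both experimental libraries.

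The Krt8-high cells, nearly absent from control skin, had almost no Alox12. At 1 day they held 5 Alox12 UMIs (0.24 CPM, 0.08 to 0.56), with Alox12b at 81.8 CPM, Ugcg at 252.2, Abca12 at 179.3 and Cers3 at 66.2. Experimental immune cells held 62.6, 241.7, 141.3 and 47.8 CPM of these 4 genes, and other named cells 98.5, 339, 149 and 52.8 CPM, so the Krt8-high levels at 1 day are near those comparisons. What those cells themselves make of Ugcg, Abca12 and Cers3 was not measured, so for these genes nearness does not show background. At 1 week Krt8-high cells held 0 Alox12 UMIs, which allows up to 0.47 CPM, and 1948 Alox12b UMIs (305.5 CPM). At 1 week their Alox12b level was below that of granular-like cells (1010 CPM) and above that of immune cells (24.2 CPM). Alox12e was at 9.32 CPM in them at 1 day, below the 46.5 CPM of immune cells. A further cluster of 3018 experimental and 2 control cells at 1 day, led by Slpi and Sprr2 genes and given no class, held 243.6 CPM of Alox12b, 677.6 of Ugcg and 0.36 of Alox12.

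In the upper follicle, 1 member at 1 day and 0 at 1 week passed 2-fold, as counted above. Alox12e in upper follicle-like cells was at 320.2 and 199.4 CPM at 1 day, a log2 ratio of -0.68 (-0.78 to -0.58), with hashtag sets that overlapped (285.5 to 402.3 and 170.6 to 334.1 CPM), and at 1926 and 1721 CPM at 1 week, a ratio of -0.16 (-0.21 to -0.12). The 1 day class has a cluster led by Cst6 and Defb6, at 635.9 and 430.8 CPM, and another with Flg among its leading genes, at 153 and 79.3 CPM. Upper follicle-like cells held 16.6% of the Alox12e UMIs of control keratinocytes at 1 day and 23.1% of the experimental ones, and 23.5% and 57.1% at 1 week. Ugcg was at 141.8 and 245.4 CPM in them at 1 day and at 89.3 and 85.9 CPM at 1 week, the first beside immune levels of 88.5 and 241.7 CPM. In the Cst6 cluster at 1 day Ugcg was at 39.4 and 109 CPM and Alox12b at 3.18 and 21.8 CPM, each below the pooled immune level of its library, the last beside 21.1 CPM in Langerhans-like cells. For neither gene does being below the immune level show background. In bulge-like cells at 1 day Alox12b had a log2 ratio of 1.81 (4.04 and 14.2 CPM), Ugcg of 1.19, Abca12 of 1.08 and Alox12 of -1.69. All of these bulge-like levels were below the pooled immune level of their library. This does not show that any of them is background.

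In sebaceous-like cells Elovl4 and Acer1 were the members above the pooled immune level in all 4 libraries. At 1 day, in 1 cluster of 308 control and 206 experimental cells, Elovl4 was at 643.4 CPM (610.4 to 677.7) and 2083 CPM (2005 to 2164), a log2 ratio of 1.70. With cells of at least 1400 UMIs clustered anew, 2 sebaceous-like clusters were found at 1 day. That led by Plin2 had 462 control and 246 experimental cells, and that led by Soat1 and Cidea 114 and 247. The part of this makeup in the 1 day Elovl4 difference was not tested. The hashtag sets overlapped, at 975.7, 17 and 90.2 CPM in the 3 control sets (118, 36 and 39 cells) and 3835 and 571.3 CPM in the 2 experimental sets with enough cells (36 and 29), and the set of hashtag 1 was the highest in each library. The summed granular markers in sebaceous-like cells were at 130.9 and 2058 CPM at 1 day and at 34.3 and 2977 CPM at 1 week, and their part in the Elovl4 difference was not tested. At 1 week the class value went from 1443 to 6212 CPM, but 2 clusters hold the class in unequal parts. The cluster led by Far2, Cidea and Soat1, genes of sebum lipids, had 7 control and 127 experimental cells, with Elovl4 at 12644 CPM (12088 to 13220) and 14046 CPM (13767 to 14331). The other, led by Plin2, had 149 and 86 cells, with Elovl4 at 32.1 CPM (22.8 to 43.8) and 290.5 CPM (256.4 to 327.9), beside 86.3 and 93.3 CPM in immune cells. Its control level is thus below that of immune cells, and the 1 week control class exceeds them through 7 cells. Acer1 in sebaceous-like cells was at 101 and 132.1 CPM at 1 day, with 116 and 188.8 CPM at 1 week. In the 1 week cluster led by Far2 it was at 437.1 CPM (338.8 to 555.1) in control and 318.3 CPM (277.4 to 363.6) in experimental cells. In that led by Plin2 it was at 75.6 CPM (60.9 to 92.7) and 90.9 CPM (72.3 to 112.9). The experimental level was thus the lower one in the Far2 cluster and the higher one in the Plin2 cluster. Level intervals overlapped in each, which does not show that the levels are alike, and ratio intervals within these clusters are not given. Alox12 had 0 UMIs in 3 of the 4 libraries' sebaceous-like cells, which allows up to 1.36 CPM in 1 day control, 2.19 in 1 week control and 1.90 in 1 week experimental cells.

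The rest of the pathway was taken as 5 lists of 86 other genes, and most genes stayed within 2-fold. Their counts stand beside the shares of all genes given above, 3.57% lower and 6.92% higher at 1 day and 6.43% and 9.74% at 1 week. Among other lipoxygenases and eicosanoid enzymes 0 of 13 counted were lower and 2 higher at 1 day, and 0 and 4 of 14 at 1 week. Of these 4, Cyp4f39, a fatty acid hydroxylase, was under 2-fold without sebaceous-like cells (1.04 and 0.97). Sdr9c7, the dehydrogenase that acts after Aloxe3, was at 11 and 24.8 CPM at 1 day, with 14.2 and 65.5 CPM at 1 week, log2 ratios of 1.17 and 2.20. Ptges, a prostaglandin E synthase, had 1.08 at 1 day, and at 1 week Alox8 had 1.45 (0.97 and 2.65 CPM) and Alox15 4.86 (2.21 to 10.24) from 1 and 19 UMIs.

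Of sphingoid base and ceramide synthesis genes 0 of 11 were lower and 2 higher at 1 day, and 2 lower and 3 higher at 1 week. Degs2, which adds a hydroxyl group to make phytoceramide, was at 0.23 and 3.8 CPM at 1 day, with 0.64 and 11 CPM at 1 week, with log2 ratios of 4.05 and 4.10. The ceramide synthase Cers2 had ratios of 1.23 and 1.54, and Cers4 1.04 at 1 week (0.32 without sebaceous-like cells). Sptlc3, a subunit of the enzyme that opens the pathway, was lower by 1.23 on the log2 scale at 1 week (100.6 and 42.9 CPM), and the ceramide synthase Cers6 by 1.06.

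Among ceramide turnover genes 3 of 20 were higher at 1 day and 4 of 19 at 1 week, with 0 and 2 lower. Smpd3, a neutral sphingomyelinase, had log2 ratios of 2.70 and 3.48 (0.71 and 4.6 CPM at 1 day, 0.76 and 8.52 CPM at 1 week), and Gba2 of 1.81 and 2.45. B4galt6 had 1.58 at 1 day from 12 and 29 UMIs, and Sgpp2 2.73 at 1 week from 6 and 26 UMIs. The sphingomyelin synthase Sgms1 (194.7 and 84.5 CPM) and the ceramidase Acer3 (134.5 and 65.9 CPM) were lower at 1 week, with ratios of -1.21 and -1.03.

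Of 19 very long chain fatty acid genes counted, 2 were higher at 1 day and 8 at 1 week, and 0 lower. The 2 at 1 day were the elongase Elovl1, at 162.1 and 351.4 CPM (log2 ratio 1.12), and Fads2 (1.07, from 10 and 17 UMIs). Elovl1 was also among the 8 at 1 week, at 127.7 and 281.8 CPM (1.14, and 1.14 without sebaceous-like cells). At 1 week the fatty acid elongase Elovl3 was at 8.54 and 64.7 CPM (log2 ratio 2.92), Fa2h at 22.5 and 115.2 CPM (2.36), Fads3 at 0.71 and 3.21 CPM (2.17) and the fatty acid transporter Slc27a4 at 17.8 and 55.1 CPM (1.63). Elovl3 and Fa2h are known in sebaceous cells, and without sebaceous-like cells their ratios were 0.71 and -0.17, under 2-fold. The elongases Elovl5 (1.17 and 0.18) and Elovl6 (1.47 and -0.22) also passed 2-fold with those cells and not without them, so 4 of the 8 remained. The ratios of Fads3 and Slc27a4 without those cells were 2.19 and 1.36. Among acylceramide droplet, export and envelope genes 2 of 19 were higher at 1 day and 4 at 1 week. Lipk, an epidermal lipase, had ratios of 1.83 and 3.98, Tgm1, which cross-links the envelope, 1.64 and 1.91, and at 1 week Lipn had 1.81 and Dgat1 1.23 (0.63 without sebaceous-like cells).

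Likeness of pattern was measured by the Pearson correlation of log2(CPM + 1) over sums of each class in each library, 21 at 1 day and 18 at 1 week, taking the lower of both values, over 8223 genes. The sums of a library share its depth and free RNA, so this is a description. Genes most like Alox12 were Serpinb12 (0.84), Adh6a (0.78) and Cyp2j6 (0.74), and those most like Alox12e were Defb1 (0.79), Skint3 (0.79) and Nebl (0.73). Tubb2a, Nccrp1 and Trex2 were most like Alox12b (0.92 each). Elovl4 and Acer1 were among each other's 3 nearest genes (0.93). Cers3 was nearest to Nipal4 (0.94), Abca12 to Gltp (0.95), which carries glycolipids, and Ugcg to Prdm1 (0.93). Aloxe3 was nearest to Fam110a (0.95) and Pnpla1 to Vsig10l (0.95). Among the members, Alox12b correlated with Aloxe3 at 0.90 and 0.84, at 1 day and 1 week, but with Alox12 at 0.37 and 0.11.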

How the data were processed

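Droplet single-cell libraries of epidermal cells (10x Genomics, 1 library per group) were deposited as matrices of counts (UMIs per gene and barcode), which the authors made with Cell Ranger 5.0.1 on mm10, per the file headers and the submitters' processing notes, which also name Seurat. The counts, taken as deposited, were filtered to barcodes with at least 500 UMIs, 300 genes and at most 15% mitochondrial counts. Scrublet (scanpy 1.11.5) removed the top-scoring barcodes at 0.8% for each 1000 barcodes, and cells under 2000 UMIs were set aside. Clustering was done per time point on both libraries at once, using 2000 variable genes without members or pathway genes (30 components, 15 neighbours, Leiden resolution 1). Clusters were named from fixed markers by score limits set after the data were seen, clusters low in UMIs were set aside, and keratinocyte clusters that met no limit have no class.

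Counts were summed per class and library and divided by the summed total (CPM). Levels have exact Poisson and ratios exact conditional binomial 95% intervals, and shares of cells exact Clopper-Pearson ones. A count of 0 allows up to 3 counts. UMIs count molecules, and these intervals cover counting error only. With 1 library per group there is no test. The ratio, its interval and the 2-fold call were tested on simulated sums drawn with counting error only, and the summing was not tested. TMM scaling used edgeR 4.0.16.

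Named pathway genes are those past 2-fold with at least 20 UMIs, at most 4 a list and direction, and 3 genes per member were named for likeness. As exceptions, Elovl1, Fads2, Elovl5, Elovl6 and Cyp4f39 were named after their values were seen. The members and lists were chosen with earlier results of these data known. Alternatives changed the scaling, filters, clustering, cells and fold.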

Additional observations from a re-analysis of the deposited data

Results flagged for a closer look

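Acer1, the ceramidase, had log2 ratios of opposite sign over all keratinocytes, 0.21 at 1 day and -0.20 at 1 week. The difference between the time points was not tested, each value rests on 1 pair of libraries, and the kits differ. The hashtag sets of the 1 day libraries overlapped for this gene.

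Clusters of low UMI number that were set aside held 76 control and 1172 experimental cells at 1 week, and 8 of 9 members with enough UMIs were at least 2-fold higher there in the experimental library, as were 1774 of 10011 genes, while 1712 were lower. All 9 stood above control cells there. Aloxe3, at 27.4 and 11.9 CPM, was 2.31-fold higher with intervals that overlap, and Ugcg was under 2-fold with intervals apart. The lipoxygenase Alox12b was at 124.8 CPM in experimental and 2.97 CPM (1 UMI) in control cells, and Alox12e at 467 and 139.5 CPM. Elovl4 was at 349.7 and 53.4 CPM, Abca12 at 143.2 and 35.6 CPM, and Cers3 at 50.1 and 17.8 CPM. Pnpla1 was at 29.2 and 2.97 CPM (1 UMI), Acer1 at 45.8 and 14.8 CPM, and Ugcg at 143.5 and 89 CPM. The 2 libraries fill different clusters here: 65 of the 76 control cells are in a cluster led by Crabp1. Of the experimental cells, 442 are in a cluster led by Fabp4 and Cd36, with 8 control cells, and 236 and 197 are in clusters led by Rptn and Flg2, which hold 0 control cells. The part of that makeup in the differences was not tested.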

How the results depend on the processing

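Each group is 1 library, so no ratio has an error beyond counting. At 1 week basal-like and spinous-like cells alone were not run (14 and 6 experimental cells). No paired analysis was possible because each group is 1 library. Scaling by TMM moved every log2 ratio by -0.02 at 1 day and -0.07 at 1 week, and totals without mitochondrial and ribosomal protein genes by -0.11 and -0.09. Over the alternatives that gave a ratio, Alox12 stayed lower in 19 of 19 at 1 day and 14 of 15 at 1 week, and Alox12b higher in 21 of 21 and 16 of 16. For Alox12 at 1 day, basal-like (11 control and 0 experimental UMIs) and sebaceous-like cells (0 and 2) gave no finite ratio. The 19 include cycling cells, with only 6 and 2 UMIs. For Alox12b they include 1 day basal-like, cycling and bulge-like cells, whose levels lie below both immune types. Its smallest 1 week ratio was 0.16, in upper follicle-like cells (26 and 45 UMIs). The 1 week control levels were only 0.73 CPM in sebaceous-like and 0.27 CPM in cycling cells. All alternatives use the same libraries, so their agreement is not independent support. Alox12e stayed lower in 18 of 21 at 1 day, Ugcg higher in 21 of 21 and 16 of 17, and Acer1 kept its sign in 18 of 21 and 12 of 17.

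The median log2 ratio of the members at 1 day was 0.65 without mitochondrial and ribosomal totals, 0.90 without Krt8-high clusters, 1.102 as a mean of CPM over cells, and 0.71 in barcodes led by 1 hashtag, an alternative chosen after seeing the data. By class at 1 day it was 0.89 in basal-like, 0.56 in spinous-like, 0.0038 in granular-like, 0.91 in cycling, 0.35 in upper follicle-like, 0.65 in bulge-like and 2.27 in sebaceous-like cells. Members at least 2-fold lower at 1 day numbered 0 in basal-like (912 of 10520 genes), cycling (267 of 10813), upper follicle-like (153 of 10437) and sebaceous-like cells (240 of 8469) and 1 in spinous-like (565 of 11464) and bulge-like cells (125 of 11574). In granular-like cells 2 were lower (507 of 9804 genes). Members at least 2-fold higher numbered 4 in basal-like (648 of 10520 genes), 3 in cycling (485 of 10813) and 3 in bulge-like cells (399 of 11574), 1 in spinous-like (625 of 11464 genes), granular-like (1389 of 9804) and upper follicle-like cells (369 of 10437), and 7 in sebaceous-like cells (675 of 8469). At 1 week the median was 0.17 without Krt8-high clusters, 0.50 in granular-like, 0.18 in cycling, -0.16 in upper follicle-like, 0.19 in bulge-like and 1.40 in sebaceous-like cells. There, 0 members were 2-fold lower in granular-like (838 of 6678 genes), upper follicle-like (216 of 10367), bulge-like (328 of 10986) and sebaceous-like cells (542 of 8958), and 1 was in cycling cells (709 of 11045). At 1 week 1 was 2-fold higher in granular-like (390 genes) and bulge-like cells (412), 3 in cycling (709) and sebaceous-like cells (751) and 0 in upper follicle-like cells (958).

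Of members past 2-fold over all keratinocytes, these turned sign in a class: at 1 day Alox12e in basal-like (0.36), bulge-like (0.11) and sebaceous-like cells (1.71) and Pnpla1 in granular-like cells (-0.17), and at 1 week Alox12 (0.69, from 4 and 10 UMIs) and Elovl4 (-0.39) in upper follicle-like cells and Pnpla1 in bulge-like cells (-0.98, from 4 and 2 UMIs). Members under 2-fold turned sign too, among them Abca12 (-0.44), Cers3 (-0.04) in granular-like and Acer1 (-0.40) in spinous-like cells at 1 day, and Aloxe3 in cycling (-1.01) and Abca12 in upper follicle-like cells (-0.53) at 1 week. The cause was not tested. The alternative of at least 1400 UMIs was clustered anew.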
